A study of Mus musculus with 8 samples.

Results

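The genes described are 31 genes of the p53 pathway, measured by bulk RNA sequencing in B16F10 cells, a mouse melanoma line. They were chosen by name as known targets and regulators of p53, with earlier results of these data known. They comprise Trp53 itself, its inhibitor Mdm4, and 29 genes reported as targets of p53, among them its other inhibitor, Mdm2. Whether p53 drives each of them in these mouse cells was not tested. The deposited table names 45556 genes, 31 of them members, and 30 of these were among the 13500 genes with enough reads to test. Pmaip1, which encodes the cell death protein NOXA, was listed at 0 counts in all 8 libraries and was not tested. A count of 0 allows a level of up to 0.0821 to 0.116 CPM (counts scaled to library size), depending on the library, which is the level of 3 counts and covers counting error only.

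The p53 protein is a transcription factor that Mdm2 keeps scarce by marking it for degradation. DNA damage and other stresses release it, and it then switches on genes that stop the cell cycle, start cell death, repair DNA and adjust metabolism. Mdm2 is one of those genes, so that the pathway restrains itself. Cell cycle arrest in this pathway runs mainly through Cdkn1a, which encodes the cyclin-dependent kinase inhibitor p21.

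The samples fall into 4 groups of 2 libraries each. The shDRG2 line carries a hairpin against Drg2, which encodes a GTP-binding protein, and the pLKO line carries the empty hairpin vector. Cells of each line either received recombinant mouse IFN-γ, an inflammatory cytokine, at 5 ng/ml for 24 h or were left without it. With 1 hairpin line and an empty vector in place of a control hairpin, loss of Drg2 and any other effect of carrying this hairpin cannot be told apart. The labels do not say that the 2 libraries of a group came from separate cultures, so the tests here rest on a spread between libraries that may be technical only. The series concerns PD-L1 at the surface of melanoma cells, and its labels do not mention p53.

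Library totals ran from 25422758 to 36654519 estimated counts. Drg2 was lower in shDRG2 than in pLKO cells, by log2 fold changes of -3.27 with IFN-γ and -3.01 without it, and Irf1, Cd274 and Gbp2 were higher with IFN-γ in both lines. All 7 melanocytic markers were detected, and they summed to 9621 to 10124 CPM in shDRG2 cells with IFN-γ, 13870 to 14944 CPM in shDRG2 cells without it, 10961 to 11057 CPM in pLKO cells with it and 12910 to 13026 CPM in pLKO cells without it. The 6 leukocyte, 4 endothelial and 5 epithelial markers each summed to between 0.122 and 0.688 CPM. Cd3e, Itgam, Adgre1, Cdh5, Kdr, Epcam and Krt18 were at 0 in every library. The 5 fibroblast markers summed to 4.10 to 5.61 CPM in shDRG2 cells with IFN-γ and 18 to 19.5 CPM without it, and to 5.56 to 5.57 CPM in pLKO cells with IFN-γ and 15.8 to 18.9 CPM without it. The melanocytic and fibroblast sums were thus both lower with IFN-γ, but the fibroblast markers did not all fall. Of the 3 with enough reads to test, 2 had log2 fold changes below 0 and 1 above in each line. Their values ran from -2.19 to 1.54 in shDRG2 cells and from -1.82 to 0.19 in pLKO cells. The part of the melanocytic and fibroblast sums in the results on IFN-γ was not tested.

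Most of what moved among the p53 genes moved with IFN-γ, and most of it moved down. In shDRG2 cells IFN-γ lowered 15 and raised 3 of the 30 members tested, and in pLKO cells it lowered 14 and raised 3. A gene counts as changed here when its adjusted p is under 0.05 in edgeR's quasi-likelihood F test, with Benjamini-Hochberg adjustment over the 13500 genes. By that rule 31.4% of all genes tested changed in shDRG2 cells, 15.2% lower and 16.2% higher, and 28.1% changed in pLKO cells, 12.7% lower and 15.4% higher. The 13 members lower in both lines were Perp, Gdf15, Zmat3, Eda2r, Plk3, Ccng1, Pidd1, Plk2, Cdkn1a, Ei24, Aen, Ephx1 and Ercc5, while 11% of all genes tested were lower in both. Bbc3, Gadd45a and Rrm2b were higher in both lines. The median log2 fold change over the 30 members was -0.27 in shDRG2 cells and -0.24 in pLKO cells, and over all genes tested it was 0.00 and 0.01. Fewer cells with a transcript and less of it per cell cannot be told apart in bulk RNA.

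**Figure D1:**
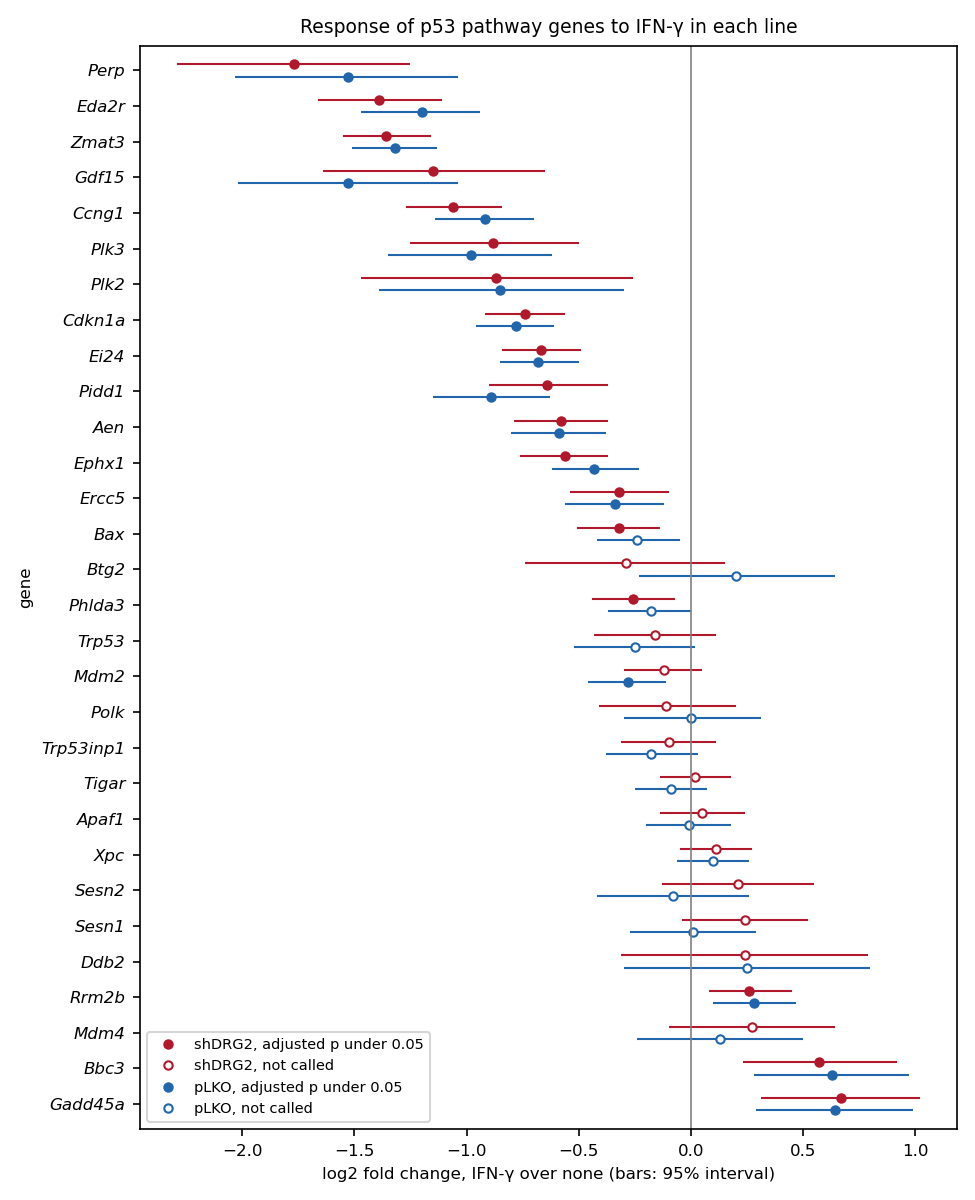
Log2 fold change with IFN-γ over none (horizontal axis) of the 30 members tested (rows), in shDRG2 cells (red, upper marker) and pLKO cells (blue, lower marker), with 95% intervals. Filled markers have an adjusted p under 0.05, and 13 genes have filled markers left of 0 in both lines.

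Start regions of 5 members are shown so that the letters can be set beside the response: Cdkn1a, Eda2r, Ccng1 and Ei24, which fell with IFN-γ, and Gadd45a, which rose. Each window is taken from RefSeq (GRCm38.p6) and runs 5′ to 3′ along the gene, from 250 bases before its start to 50 after it. Capitals mark matches to the p53 half-site consensus, the pattern bound by a pair of p53 subunits, which reads the same on both strands.
Cdkn1a, chr17:29090729-29091028, plus strand: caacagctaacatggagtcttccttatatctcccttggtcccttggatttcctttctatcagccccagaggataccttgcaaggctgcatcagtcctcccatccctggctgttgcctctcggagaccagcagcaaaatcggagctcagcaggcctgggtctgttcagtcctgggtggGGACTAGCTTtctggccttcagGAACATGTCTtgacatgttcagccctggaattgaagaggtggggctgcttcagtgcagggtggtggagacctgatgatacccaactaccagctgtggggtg
Eda2r, chrX:97377160-97377459, minus strand: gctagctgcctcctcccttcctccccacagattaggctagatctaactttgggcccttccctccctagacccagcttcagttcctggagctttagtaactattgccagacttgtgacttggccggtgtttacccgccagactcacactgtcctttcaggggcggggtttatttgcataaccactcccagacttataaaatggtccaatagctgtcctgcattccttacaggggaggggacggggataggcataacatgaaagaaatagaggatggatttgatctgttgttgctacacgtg
Ccng1, chr11:40755237-40755536, minus strand: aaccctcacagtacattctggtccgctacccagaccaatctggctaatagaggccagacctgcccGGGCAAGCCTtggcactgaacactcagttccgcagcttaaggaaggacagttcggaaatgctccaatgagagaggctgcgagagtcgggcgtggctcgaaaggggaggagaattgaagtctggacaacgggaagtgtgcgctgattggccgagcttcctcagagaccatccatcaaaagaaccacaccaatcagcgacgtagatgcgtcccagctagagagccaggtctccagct
Ei24, chr9:36797285-36797584, minus strand: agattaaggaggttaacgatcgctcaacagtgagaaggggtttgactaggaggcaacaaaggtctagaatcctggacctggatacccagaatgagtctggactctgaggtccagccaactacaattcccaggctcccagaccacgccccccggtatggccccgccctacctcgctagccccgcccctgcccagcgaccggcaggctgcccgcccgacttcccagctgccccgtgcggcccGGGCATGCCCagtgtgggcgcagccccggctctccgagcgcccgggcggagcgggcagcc
Gadd45a, chr6:67037358-67037657, minus strand: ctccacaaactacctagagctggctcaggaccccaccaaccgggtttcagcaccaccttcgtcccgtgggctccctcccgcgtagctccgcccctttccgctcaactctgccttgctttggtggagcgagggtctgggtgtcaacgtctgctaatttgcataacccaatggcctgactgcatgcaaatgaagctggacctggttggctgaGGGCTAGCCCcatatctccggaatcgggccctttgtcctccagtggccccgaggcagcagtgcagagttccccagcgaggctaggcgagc

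The Cdkn1a window held 2 matches, beginning at bases -73 and -51, counted back from the start. The Ccng1 window held 1 at base -185, the Ei24 window 1 at base -10, and the Gadd45a window 1 at base -40. The Eda2r window held none. The windows shown were picked, and a larger share of them held a match than of all the members' windows. Windows were found for 24 of the 31 members, 32 windows in all. Of the 32, 11 (34.4%) held a match, against 8.36% of 32851 windows of the same length from the whole table. Windows of 1 gene can overlap, and Aen held the same site in overlapping windows. By gene, 10 of the 24 (41.7%) had a match, against 9.55% of 27025 genes. The other members with a match were Aen, Bax, Mdm2, Polk, Sesn1 and Trp53, so the pattern was present in genes that fell, rose or passed in neither direction with IFN-γ. The letters CATG, which read the same on both strands and form the core of some half-sites, were in 31.2% of the members' windows and in 61.1% of all windows. The members' windows were also richer in G and C, with a median of 63.0%, against 52.7% over all windows, and its part in these shares was not tested. A match describes the letters only, and nothing about binding by p53 was measured.

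Among the genes at the head of the pathway, Trp53 passed in neither line and Mdm2 in pLKO cells only. Trp53 stood at 99.6 and 91.3 CPM in shDRG2 cells with IFN-γ and 115 and 97.8 CPM without it, and at 94.1 and 73.5 CPM in pLKO cells with IFN-γ and 103 and 95.9 CPM without it. The 2 libraries of each treatment overlapped in shDRG2 cells and did not in pLKO cells. Its log2 fold change with IFN-γ was -0.16 (SE 0.121, edgeR adjusted p = 0.362) in shDRG2 cells and -0.25 (SE 0.122, adjusted p = 0.167) in pLKO cells. Without replicate 1 of the IFN-γ group in pLKO cells, which was the higher of the pair, the pLKO value was -0.42 with an adjusted p of 0.0271. The transcript level says nothing of the amount or activity of the p53 protein, which is set largely by degradation.

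Mdm2, the ubiquitin ligase that limits p53 and is itself a p53 target, stood at 150 and 148 CPM in shDRG2 cells with IFN-γ and 159 and 166 CPM without it. In pLKO cells it stood at 169 and 152 CPM with IFN-γ and at 203 and 188 CPM without it. The libraries with IFN-γ lay below those without it in both lines, and the difference passed the threshold in pLKO cells, with a log2 fold change of -0.28 (SE 0.080, edgeR adjusted p = 0.0234), and not in shDRG2 cells, at -0.12 (SE 0.0802, adjusted p = 0.278). The pLKO call was lost without pLKO replicate 1 of the group without IFN-γ (adjusted p = 0.163) or replicate 2 of the group with it (adjusted p = 0.181), and when only the 4 libraries compared were fitted (0.0505). The test of the difference between the 2 responses, 0.16 on the log2 scale, gave an adjusted p of 1.00. Mdm4, a relative of Mdm2 that binds p53 and blocks it, stood at 97.3 and 120 CPM in shDRG2 cells with IFN-γ and 78.1 and 103 CPM without it, and at 93.3 and 121 CPM in pLKO cells with IFN-γ and 88.5 and 108 CPM without it. The treatments overlapped in both lines, and neither change passed, with log2 fold changes of 0.27 (edgeR adjusted p = 0.261) in shDRG2 cells and 0.13 (adjusted p = 0.63) in pLKO cells. The shDRG2 value passed when no filter on low counts was used (0.28, adjusted p = 0.0181).

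Most cell cycle genes of the pathway fell, Btg2 did not change and Gadd45a rose. Cdkn1a (ENSMUSG00000023067, chr17:29090976-29100727, plus strand) stood at 82.4 and 82.2 CPM in shDRG2 cells with IFN-γ and at 133 and 141 CPM without it, and in pLKO cells at 111 and 110 CPM with IFN-γ and 178 and 201 CPM without it. All 4 libraries with IFN-γ lay below all 4 without it. With IFN-γ its log2 fold change was -0.74 (SE 0.0805, edgeR adjusted p = 6.56e-05) in shDRG2 cells and -0.78 (SE 0.0799, adjusted p = 4.63e-05) in pLKO cells. Of its exon bases, 7.68% also lie in AC167363.2 on the other strand.

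Ccng1, which encodes cyclin G1, a p53 target that acts with protein phosphatase 2A, was among the most abundant members per length, with means of 62.9 and 131 CPM per kb in shDRG2 cells with and without IFN-γ and 76.1 and 144 CPM per kb in pLKO cells, beside 77.6, 97.1, 75.2 and 88.6 CPM per kb for Bax. It stood at 221 and 221 CPM in shDRG2 cells with IFN-γ and 478 and 441 CPM without it, and at 281 and 253 CPM in pLKO cells with IFN-γ and 549 and 462 CPM without it. Every library with IFN-γ was again below every one without it, and the level was 2.08 times lower with IFN-γ in shDRG2 cells and 1.89 times lower in pLKO cells.

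Zmat3, which encodes an RNA-binding zinc finger protein that takes part in p53-dependent growth control, fell further. It stood at 74.1 and 71.7 CPM in shDRG2 cells with IFN-γ and 190 and 183 CPM without it, and at 95.6 and 81.1 CPM in pLKO cells with IFN-γ and 223 and 218 CPM without it. The treatments did not overlap in either line, and the log2 fold changes were -1.36 (SE 0.0873, edgeR adjusted p = 1.23e-06) in shDRG2 cells and -1.32 (SE 0.0870, adjusted p = 1.66e-06) in pLKO cells. Plk2 and Plk3 encode polo-like kinases that respond to stress, and both were scarce. Plk3 stood at 3.50 and 2.79 CPM in shDRG2 cells with IFN-γ and 6.06 and 5.43 CPM without it, and at 3.97 and 4.29 CPM in pLKO cells with IFN-γ and 8.22 and 8.13 CPM without it. It was 1.84 times lower with IFN-γ in shDRG2 cells and 1.98 times lower in pLKO cells, with no overlap between treatments in either line.

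Plk2 stood at 2.53 and 1.59 CPM in shDRG2 cells with IFN-γ and 3.55 and 3.91 CPM without it, and at 4.89 and 3.35 CPM in pLKO cells with IFN-γ and 8.22 and 6.54 CPM without it. The treatments did not overlap within either line, but the shDRG2 libraries without IFN-γ lay inside the range of the pLKO libraries with it. Its log2 fold change was -0.87 (SE 0.271, edgeR adjusted p = 0.0333) in shDRG2 cells and -0.85 (SE 0.245, adjusted p = 0.0268) in pLKO cells. The shDRG2 call was lost without replicate 2 with IFN-γ (adjusted p = 0.227) or without replicate 1 (adjusted p = 0.0806) or 2 (adjusted p = 0.129) of the group without it. The pLKO call was lost without replicate 2 with IFN-γ (adjusted p = 0.181) or replicate 1 without it (adjusted p = 0.168). Btg2, an antiproliferative gene that responds early to stress, ranged from 3.01 to 5.06 CPM and changed in neither line.

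Gadd45a, whose product slows the cell cycle and takes part in DNA repair after damage, went the other way. It stood at 23.3 and 15.9 CPM in shDRG2 cells with IFN-γ and 12.3 and 12.3 CPM without it, and at 20.1 and 21.6 CPM in pLKO cells with IFN-γ and 13.9 and 12.8 CPM without it. All 4 libraries with IFN-γ lay above all 4 without it, although the shDRG2 pair with IFN-γ was spread apart. The log2 fold changes were 0.67 (SE 0.159, edgeR adjusted p = 0.00931) in shDRG2 cells and 0.64 (SE 0.158, adjusted p = 0.0122) in pLKO cells. The shDRG2 call was lost without replicate 1 with IFN-γ (0.37, adjusted p = 0.0720) or replicate 1 without it (adjusted p = 0.0510), and the pLKO call without replicate 2 of either group (adjusted p = 0.0584 with that IFN-γ library left out and 0.0694 with the other). Of its exon bases, 19.1% also lie in a gene on the other strand, E230016M11Rik, and whether the counts kept the strands apart is not stated in the sources used here.

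**Figure D2:**
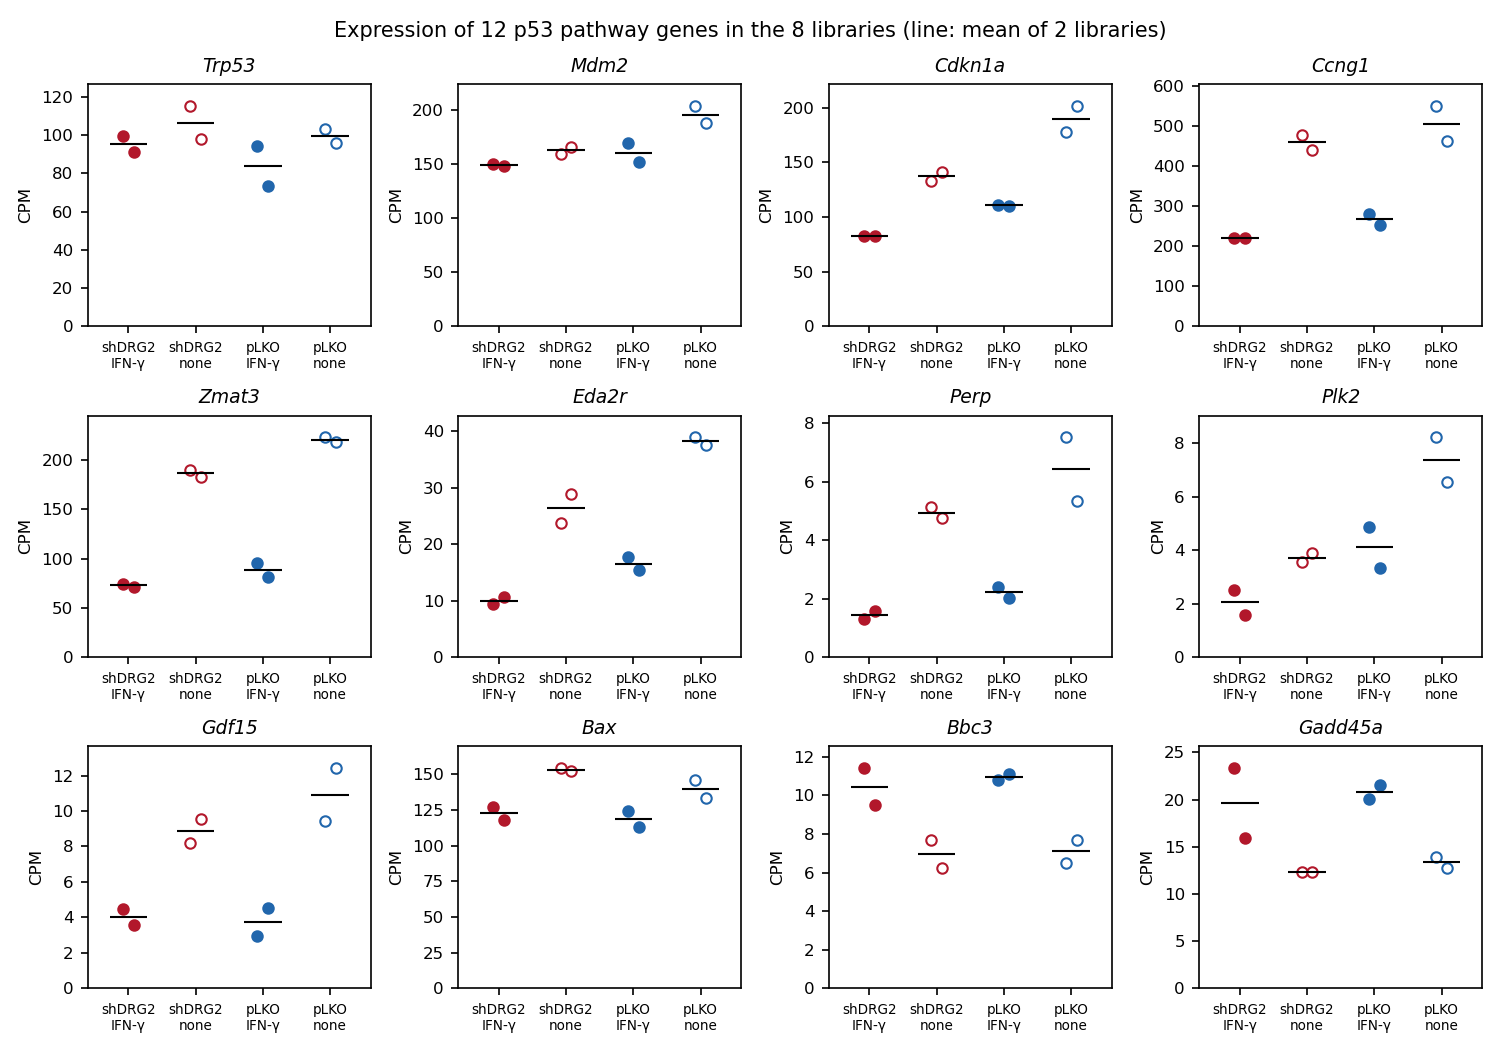
CPM (vertical axis, from 0) of 12 members in the 8 libraries, by line and treatment. Points are libraries, filled with IFN-γ and open without it, and lines are means of 2 libraries. Cdkn1a with IFN-γ lies at 82.4 and 82.2 CPM in shDRG2 cells and 111 and 110 CPM in pLKO cells, below all 4 libraries without it, and Bbc3 and Gadd45a lie higher with IFN-γ.

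Among the cell death genes, Perp, Eda2r, Pidd1, Aen and Ei24 fell in both lines and Bbc3 rose. Perp and Eda2r, whose products sit in the cell membrane, had among the steepest falls. Perp, a membrane protein of desmosomes that p53 uses in cell death, stood at 1.30 and 1.59 CPM in shDRG2 cells with IFN-γ and 5.13 and 4.77 CPM without it, and at 2.41 and 2.04 CPM in pLKO cells with IFN-γ and 7.52 and 5.35 CPM without it. It was low throughout, and it was 3.41 times lower with IFN-γ in shDRG2 cells and 2.90 times lower in pLKO cells, with log2 fold changes of -1.77 (SE 0.233, edgeR adjusted p = 2.28e-04) and -1.53 (SE 0.220, adjusted p = 4.95e-04). Eda2r (ENSMUSG00000034457, chrX:97333840-97377216, minus strand), a receptor of the tumour necrosis factor receptor family for ectodysplasin A2, stood at 9.46 and 10.6 CPM in shDRG2 cells with IFN-γ and 23.8 and 28.9 CPM without it, and at 17.8 and 15.4 CPM in pLKO cells with IFN-γ and 38.9 and 37.5 CPM without it. No library with IFN-γ reached any library without it. Its log2 fold changes were -1.39 (SE 0.124, edgeR adjusted p = 1.41e-05) in shDRG2 cells and -1.20 (SE 0.119, adjusted p = 3.63e-05) in pLKO cells.

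Pidd1, Aen and Ei24 were also lower. Pidd1, the scaffold of a complex that activates caspase-2, stood at 8.50 and 10.3 CPM in shDRG2 cells with IFN-γ and 14.3 and 15.0 CPM without it, and at 10 and 9.47 CPM in pLKO cells with IFN-γ and 18.1 and 18 CPM without it. Aen, a nuclease that adds to apoptosis, stood at 54.1 and 60.7 CPM in shDRG2 cells with IFN-γ and 80.7 and 91.3 CPM without it, and at 69.0 and 62.2 CPM in pLKO cells with IFN-γ and 101 and 96.5 CPM without it. In both genes the treatments were apart in each line. Pidd1 was 1.55 times lower with IFN-γ in shDRG2 cells and 1.85 times lower in pLKO cells, and Aen 1.5 and 1.51 times lower. Ei24, an endoplasmic reticulum protein with a part in autophagy, stood at 61.2 and 61.1 CPM in shDRG2 cells with IFN-γ and 102 and 91.9 CPM without it, and at 66.0 and 64.0 CPM in pLKO cells with IFN-γ and 107 and 101 CPM without it. The 4 libraries with IFN-γ lay within a narrow band below the others, and the log2 fold changes were -0.67 (SE 0.0788, edgeR adjusted p = 1.13e-04) in shDRG2 cells and -0.68 (SE 0.0786, adjusted p = 1.16e-04) in pLKO cells.

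Of the genes that act at the mitochondrion, Bbc3 rose in both lines, Bax fell in shDRG2 cells and Apaf1 passed in neither. Bbc3, which encodes PUMA, a BH3-only protein that frees Bax to act, stood at 11.4 and 9.52 CPM in shDRG2 cells with IFN-γ and 7.71 and 6.24 CPM without it, and at 10.8 and 11.1 CPM in pLKO cells with IFN-γ and 6.51 and 7.70 CPM without it. Both lines had all libraries with IFN-γ above all libraries without it. The log2 fold changes were 0.57 (SE 0.155, edgeR adjusted p = 0.0170) in shDRG2 cells and 0.63 (SE 0.154, adjusted p = 0.0122) in pLKO cells. The shDRG2 call was lost without replicate 1 with IFN-γ (adjusted p = 0.128) or replicate 2 without it (adjusted p = 0.108), and the pLKO call without replicate 2 with IFN-γ (adjusted p = 0.0545) or replicate 1 without it (adjusted p = 0.0953).

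Bax, which opens the outer mitochondrial membrane, stood at 127 and 118 CPM in shDRG2 cells with IFN-γ and 154 and 152 CPM without it, and at 124 and 113 CPM in pLKO cells with IFN-γ and 146 and 133 CPM without it. Libraries with IFN-γ lay below those without it in both lines. It fell in shDRG2 cells, with a log2 fold change of -0.32 (SE 0.0819, edgeR adjusted p = 0.0125), and missed the threshold in pLKO cells at -0.24 (SE 0.0820, adjusted p = 0.0561). The pLKO value passed with DESeq2 (adjusted p = 0.0489), library size alone (0.0150) and upper-quartile scaling (0.0184). The shDRG2 call was lost without replicate 2 with IFN-γ (adjusted p = 0.106) or replicate 1 without it (adjusted p = 0.0575), and the test of the difference between lines gave an adjusted p of 1.00. Of its exon bases 12.2% also lie in Gm45808 on the same strand, so some reads could belong to either gene. Apaf1, the core of the apoptosome, ranged from 60.4 to 69.9 CPM and changed in neither line, with log2 fold changes of 0.05 in shDRG2 cells and -0.01 in pLKO cells.

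Phlda3, which restrains Akt, stood at 90.9 and 83.3 CPM in shDRG2 cells with IFN-γ and 106 and 102 CPM without it, and at 106 and 96.5 CPM in pLKO cells with IFN-γ and 120 and 110 CPM without it. Libraries with IFN-γ lay below those without it in both lines. It fell in shDRG2 cells by a log2 fold change of -0.26 (edgeR adjusted p = 0.0414), and its value in pLKO cells was -0.18 (adjusted p = 0.137). The pLKO value passed with library size alone (adjusted p = 0.0414) and upper-quartile scaling (0.0485). Its shDRG2 call was lost without replicate 1 or 2 with IFN-γ (adjusted p = 0.0676 and 0.251), without replicate 1 or 2 of the shDRG2 group without it (0.155 and 0.0962), without replicate 1 or 2 of the pLKO group without it (0.0614 and 0.0556), and when only the 4 libraries compared were fitted (0.0505).

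Gdf15 encodes a secreted cytokine of the TGF-β family that rises in stressed cells. It stood at 4.46 and 3.56 CPM in shDRG2 cells with IFN-γ and 8.21 and 9.53 CPM without it, and at 2.97 and 4.54 CPM in pLKO cells with IFN-γ and 9.44 and 12.4 CPM without it. No overlap was seen between treatments, and the level was 2.22 times lower with IFN-γ in shDRG2 cells and 2.89 times lower in pLKO cells. The log2 fold changes were -1.15 (SE 0.222, edgeR adjusted p = 0.00284) in shDRG2 cells and -1.53 (SE 0.222, adjusted p = 5.36e-04) in pLKO cells.

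The stress and metabolism genes Sesn1, Sesn2, Tigar and Trp53inp1 changed in neither line. Sesn2, like Sesn1 a sestrin that curbs mTORC1, stood at 35.0 and 26.0 CPM in shDRG2 cells with IFN-γ and 29.3 and 23.1 CPM without it, and at 26.2 and 23.7 CPM in pLKO cells with IFN-γ and 24.9 and 27.8 CPM without it. Trp53inp1, which links p53 to autophagy, stood at 65.5 and 58.6 CPM in shDRG2 cells with IFN-γ and 68.4 and 64.2 CPM without it, and at 68.5 and 77.6 CPM in pLKO cells with IFN-γ and 78.6 and 86.6 CPM without it. The treatments overlapped for both genes in shDRG2 cells, and in pLKO cells for Sesn2. The 4 genes' log2 fold changes with IFN-γ ran from -0.10 to 0.24 in shDRG2 cells and from -0.18 to 0.01 in pLKO cells, and Tigar, a phosphatase that slows glycolysis, between 80.0 and 88.3 CPM in every library, was among the steadiest members.

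Ephx1, a detoxifying epoxide hydrolase of the endoplasmic reticulum, stood at 80.9 and 79.4 CPM in shDRG2 cells with IFN-γ and 128 and 109 CPM without it, and at 89.6 and 82.1 CPM in pLKO cells with IFN-γ and 117 and 114 CPM without it. It fell in both lines without overlap, by log2 fold changes of -0.56 (SE 0.0887, edgeR adjusted p = 8.05e-04) and -0.43 (SE 0.0887, adjusted p = 0.00500) in shDRG2 and pLKO cells.

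The DNA repair genes moved in both directions or not at all. Rrm2b, a small subunit of ribonucleotide reductase that supplies nucleotides for repair, stood at 40.5 and 37.6 CPM in shDRG2 cells with IFN-γ and 32.2 and 33.0 CPM without it, and at 36.2 and 39.2 CPM in pLKO cells with IFN-γ and 30.2 and 31.7 CPM without it. The treatments were apart in both lines, with log2 fold changes of 0.26 (SE 0.0837, edgeR adjusted p = 0.0370) in shDRG2 cells and 0.28 (SE 0.0838, adjusted p = 0.0287) in pLKO cells. These calls were fragile: they were lost under upper-quartile scaling (adjusted p = 0.0723 and 0.0562 in shDRG2 and pLKO cells), with library size alone (0.0709 and 0.0668) and with DESeq2 (0.0751 and 0.0639). Each of the shDRG2 libraries, when left out, ended the shDRG2 call (adjusted p = 0.213 and 0.0544 without replicates 1 and 2 with IFN-γ, 0.144 and 0.0842 without replicates 1 and 2 of the other group). The pLKO call ended without replicate 2 with IFN-γ (0.185) and without replicate 1 or 2 of the group without it (0.171 and 0.0687), and when only the 4 libraries compared were fitted (0.0502).

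Ercc5, an endonuclease that cuts at damaged DNA in nucleotide excision repair, stood at 42.3 and 50.2 CPM in shDRG2 cells with IFN-γ and 55.7 and 60.3 CPM without it, and at 48.6 and 54.1 CPM in pLKO cells with IFN-γ and 63.3 and 66.6 CPM without it. The treatments did not overlap, and it was 1.25 times lower with IFN-γ in shDRG2 cells (edgeR adjusted p = 0.0304) and 1.26 times lower in pLKO cells (adjusted p = 0.0273). The shDRG2 call was lost without replicate 1 with IFN-γ (0.231), without replicate 1 or 2 of the shDRG2 group without it (0.0509 and 0.173) or without pLKO replicate 2 without it (0.0510), and the pLKO call without replicate 1 with IFN-γ (0.163) or replicate 1 or 2 without it (0.0694 and 0.144). Xpc and Ddb2, which recognise damaged DNA, and Polk, a polymerase that copies past lesions, changed in neither line. Xpc stayed between 52.2 and 58.4 CPM, Polk between 28.4 and 35.9 CPM and Ddb2 between 4.64 and 7.74 CPM, and 23.8% of the exon bases of Ddb2 also lie in Acp2 on the other strand.

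The responses of the lines to IFN-γ could not be told apart for any member. The difference between the responses, shDRG2 minus pLKO on the log2 scale, passed the threshold for 0 of the 30 members (edgeR), while 0.00741% of all genes tested, 1 gene, passed. None of the members had an unadjusted p under 0.05, against 321 of all genes tested, and DESeq2 called 0 members. The largest differences were -0.50 for Btg2 (95% interval -1.12 to 0.12) and 0.38 for Gdf15 (-0.32 to 1.08). All 30 intervals included 0, and their half-widths, not adjusted for the number of genes tested, ran from 0.22 to 0.81. Smaller differences were not detectable with 2 libraries per group, and the threshold on adjusted p requires larger ones still.

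Between the lines at the same treatment, few members differed, and those that did were lower in shDRG2 cells. Cdkn1a was lower both with and without IFN-γ, and Eda2r was lower with it. With IFN-γ, 2 of 30 members were called (1.67% of all genes tested, 1.17% lower and 0.504% higher), and without it 1 of 30 (1.20% of all genes tested, 0.733% lower and 0.467% higher). The median log2 fold change of the members was -0.09 with IFN-γ and -0.12 without it, against 0.00 and 0.01 over all genes tested. Values below 0 were found for 22 and 24 of the 30 members, and for 19 in both comparisons, where 33.1% of all genes tested were below 0 in both. These comparisons share no library with each other, but each shares a group with each IFN-γ comparison. Over all genes, all 8 libraries gave 226 calls with IFN-γ and 162 without it. Both numbers were lower with any 1 library of the groups compared left out, which leaves 1 library in a group. They changed less with a library of the other groups left out. The lowest counts came without shDRG2 replicate 1 of the group with IFN-γ and of the group without it.

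**Figure D3:**
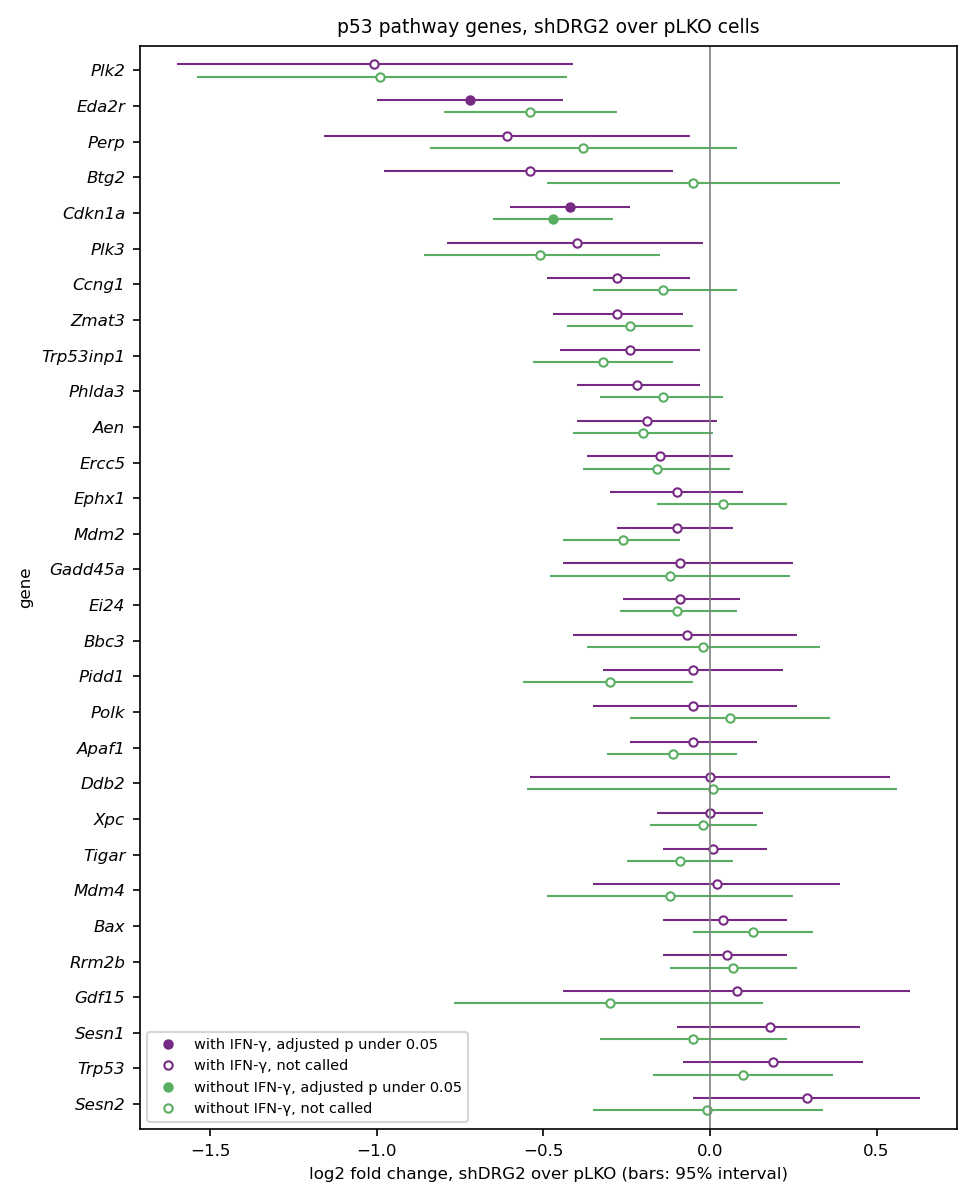
Log2 fold change in shDRG2 over pLKO cells (horizontal axis) of the 30 members tested (rows), with IFN-γ (purple, upper marker) and without it (green, lower marker), with 95% intervals. Filled markers have an adjusted p under 0.05: Cdkn1a in both comparisons, and Eda2r with IFN-γ.

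Cdkn1a, at 82.4 and 82.2 CPM in shDRG2 cells against 111 and 110 CPM in pLKO cells with IFN-γ, had a log2 fold change of -0.42 (SE 0.0806, edgeR adjusted p = 0.0305). Without IFN-γ it stood at 133 and 141 CPM in shDRG2 cells against 178 and 201 CPM in pLKO cells, with a log2 fold change of -0.47 (SE 0.0797, adjusted p = 0.0236). The lines did not overlap at either treatment, and the levels were 1.34 and 1.39 times lower in shDRG2 cells with and without IFN-γ. The call with IFN-γ was lost without shDRG2 replicate 1 or 2 (adjusted p = 0.218 and 0.183) or pLKO replicate 1 or 2 (0.126 and 0.113) of that treatment, the log2 fold change staying between -0.43 and -0.42. The call without IFN-γ was lost without shDRG2 replicate 1 or 2 (0.206 and 0.0700) or pLKO replicate 1 or 2 (0.0526 and 0.166) of the untreated groups, without shDRG2 replicate 1 or 2 with IFN-γ (0.0531 and 0.0537), and when only the 4 libraries compared were fitted (0.0501). The log2 fold change then ran from -0.56 to -0.38.

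Eda2r, at 9.46 and 10.6 CPM in shDRG2 cells against 17.8 and 15.4 CPM in pLKO cells with IFN-γ, had a log2 fold change of -0.72 (SE 0.126, edgeR adjusted p = 0.0216). Without IFN-γ it stood at 23.8 and 28.9 CPM in shDRG2 cells against 38.9 and 37.5 CPM in pLKO cells, with a log2 fold change of -0.54 (SE 0.116, adjusted p = 0.0588), which missed the threshold. The lines did not overlap at either treatment. The call with IFN-γ was lost without shDRG2 replicate 1 (-0.64, adjusted p = 0.200) or 2 (-0.81, adjusted p = 0.0854), without pLKO replicate 1 (-0.61, adjusted p = 0.112), and when only the 4 libraries compared were fitted (adjusted p = 0.0517). Without IFN-γ it passed with DESeq2 (adjusted p = 0.0129) and with no filter on low counts (4.77e-04).

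Plk2 had the lowest fitted value of the members in both comparisons and passed in neither. Its log2 fold change was -1.01 (SE 0.269, edgeR adjusted p = 0.114) with IFN-γ and -0.99 (SE 0.248, adjusted p = 0.0960) without it, at under 10 CPM in every library. DESeq2 called it at both treatments, with adjusted p-values of 0.0487 with IFN-γ and 0.0348 without it, and it also passed with no filter on low counts (3.51e-04 and 1.08e-04) and, without IFN-γ, when only the 4 libraries compared were fitted (0.0472). Mdm2 had log2 fold changes of -0.10 (edgeR adjusted p = 0.709) with IFN-γ and -0.26 (adjusted p = 0.17) without it, and Trp53 0.19 (adjusted p = 0.639) and 0.10 (adjusted p = 0.811).

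Other genes of the pathway, outside the 31, were read from 4 lists, also chosen with earlier results of these data known. Of 25 further p53 targets, 22 were tested, and with IFN-γ 6 rose and 7 fell in each line, with medians of -0.05 and -0.01 in shDRG2 and pLKO cells. The share called was 59.1% in each line, against 31.4% and 28.1% of all genes tested in shDRG2 and pLKO cells. Pml, which builds nuclear bodies, and Bid, a BH3-only protein, rose, by log2 fold changes of 1.32 and 1.11 in shDRG2 cells and 1.34 and 1.00 in pLKO cells. Fas, a death receptor, had 49 and 57 counts in shDRG2 cells with IFN-γ and 1 and 2 without it, and 30 and 58 counts in pLKO cells with IFN-γ and 2 and 3 without it, so its rise was large from few reads. Ptp4a3, a phosphatase, fell by log2 fold changes of -1.23 and -0.98, and Slc19a2, a thiamine transporter, by -0.61 and -0.71, in shDRG2 and pLKO cells. Steap3, Fbxw7 and Sertad1 also rose, by 0.43 to 0.64 in shDRG2 cells and 0.47 to 0.51 in pLKO cells. Cyfip2, Psrc1, Ckap2, Tnfrsf10b and Rap2b, the most abundant gene of this list at 185 to 304 CPM, fell as well, by log2 fold changes of -0.73 to -0.36 in shDRG2 cells and -0.58 to -0.33 in pLKO cells. Of the 13 calls in pLKO cells, 8 were kept without replicate 2 of the group without IFN-γ.

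Tnfrsf10b, the mouse receptor for the death ligand TRAIL, was the only gene of these lists called between the lines. It stood at 6.33 and 5.39 CPM in shDRG2 cells against 13.3 and 11.9 CPM in pLKO cells with IFN-γ, and at 8.83 and 10.3 CPM in shDRG2 cells against 17.4 and 19.0 CPM in pLKO cells without it. The lines did not overlap, with log2 fold changes of -1.11 (SE 0.138, edgeR adjusted p = 0.00410) with IFN-γ and -0.93 (SE 0.132, adjusted p = 0.00915) without it. The call with IFN-γ was lost without shDRG2 replicate 2 (-0.99, adjusted p = 0.0531), and the call without IFN-γ was lost without shDRG2 replicate 1 (adjusted p = 0.129) or pLKO replicate 1 or 2 (0.0526 and 0.0709).

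Of 25 genes that control p53, 22 were tested. In shDRG2 cells IFN-γ raised 1 and lowered 3 of them, and in pLKO cells it raised 2 and lowered 4. The share called was 18.2% in shDRG2 cells and 27.3% in pLKO cells, not above the 31.4% and 28.1% of all genes tested. Atm, the kinase that signals double-strand breaks to p53, rose by log2 fold changes of 1.65 (SE 0.0891, edgeR adjusted p = 3.16e-07) in shDRG2 cells and 1.56 (SE 0.0892, adjusted p = 5.57e-07) in pLKO cells. It stood at 341 and 299 CPM in shDRG2 cells with IFN-γ and 96.7 and 107 CPM without it, and at 266 and 272 CPM in pLKO cells with IFN-γ and 94.1 and 88.1 CPM without it, with no overlap. Ppp1r13l, an inhibitor of p53, fell in both lines, by -0.46 and -0.58, and in pLKO cells alone Atr passed higher (0.28) and Usp7, which deubiquitinates Mdm2 and p53, passed lower (-0.26). The Ppp1r13l call in shDRG2 cells was lost without any 1 of the shDRG2 libraries, at -0.56 to -0.37. Its pLKO call was lost without pLKO replicate 1 with IFN-γ (-0.43) or replicate 2 without it (-0.51). The Atr call was lost with DESeq2 (adjusted p = 0.0564), library size alone (0.0505), upper-quartile scaling (0.0555), the 4 libraries alone (0.0547), and without pLKO replicate 1 or 2 with IFN-γ (0.0632 and 0.125) or replicate 2 without it (0.189). The Usp7 call was lost with the 4 libraries alone (0.0579), without pLKO replicate 1 or 2 with IFN-γ (0.0759 and 0.168), pLKO replicate 1 without it (0.211) or shDRG2 replicate 2 with it (0.0529). Rpl5, the ribosomal protein gene most abundant in this list, did not change, at 646 to 700 CPM. The checkpoint kinase genes Chek1 and Chek2 fell in both lines, by log2 fold changes of -0.62 and -0.44 in shDRG2 cells and -0.40 and -0.47 in pLKO cells. Of the 4 calls in shDRG2 cells, 2 were kept without replicate 1 with IFN-γ or replicate 2 without it, and Chek2 was lost both times (adjusted p = 0.139 and 0.140). Of the 6 in pLKO cells, 2 were kept without replicate 1 or 2 with IFN-γ, and 3 without replicate 2 of the other group. In pLKO cells Chek1 was lost without replicate 2 with IFN-γ (0.0795) or replicate 1 without it (0.127), and Chek2 without replicate 1 or 2 with IFN-γ (0.0625 and 0.0555) or replicate 2 without it (0.115). Atm passed with every library left out in turn.

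**Figure D4:**
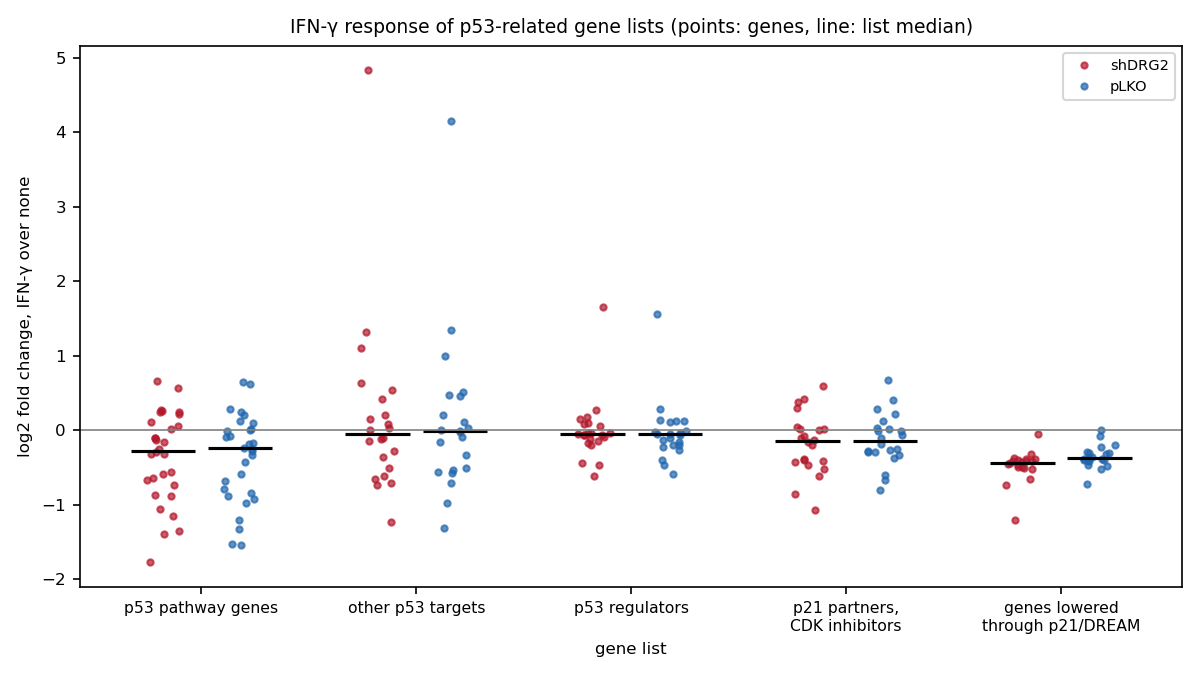
Log2 fold change with IFN-γ over none (vertical axis) of each tested gene in 5 lists (horizontal axis), in shDRG2 cells (red, left) and pLKO cells (blue, right). Points are genes and lines are list medians, which for the p53 pathway genes lie at -0.27 in shDRG2 cells and -0.24 in pLKO cells.

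The genes through which p21 acts and the other inhibitors of cyclin-dependent kinases, read as 1 list, moved in both directions with IFN-γ. Of 25 cyclins, cyclin-dependent kinases, their inhibitors and the retinoblastoma and E2F genes, 22 were tested, of which 4 rose and 9 fell in shDRG2 cells and 3 rose and 7 fell in pLKO cells. The share called was 59.1% in shDRG2 cells and 45.5% in pLKO cells, against 31.4% and 28.1% of all genes tested. Cdk2 fell by log2 fold changes of -1.07 and -0.67, and Ccnd1 (cyclin D1) by -0.85 and -0.81, in shDRG2 and pLKO cells. Cdkn1b, which encodes the inhibitor p27, rose by 0.38 and 0.40, and Rb1 by 0.60 and 0.67. The Cdkn1b call was lost without replicate 2 with IFN-γ (adjusted p = 0.0649 in shDRG2 cells and 0.0795 in pLKO cells) or replicate 1 without it (0.0624 and 0.0944). Cdk6 also rose in both lines, and Ccne2, Ccna2, Cdkn2d and E2f1 fell in both. In pLKO cells the Cdk6 call was lost with library size alone (edgeR adjusted p = 0.106) and upper-quartile scaling (0.0828). The pLKO call of Cdkn2d was lost with DESeq2 (adjusted p = 0.0518). Both pLKO calls were also lost without some single libraries. Rbl1 (higher) and Cdk1, Pcna and Ccnd2 (lower) passed in shDRG2 cells alone, and E2f4 (lower, adjusted p = 0.0452) in pLKO cells alone. For each of these shDRG2 calls, leaving out at least 1 of the shDRG2 libraries by itself ended the call. The E2f4 call was lost with DESeq2 (0.0732), with no filter (0.0568), with the 4 libraries alone (0.0812) and without any 1 of 7 libraries, all but pLKO replicate 1 with IFN-γ (0.0601 to 0.328). Ccnd2, the most abundant of the list, stood at 853 and 723 CPM in shDRG2 cells with IFN-γ and 1057 and 1035 CPM without it. In pLKO cells 4 of the 10 calls were kept without replicate 2 with IFN-γ or without replicate 1 of the other group.

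The 20 genes that p53 is known to lower through p21 and the DREAM repressor complex, mostly genes of mitosis, fell or did not change with IFN-γ. Of these 20, 17 fell and 0 rose in shDRG2 cells and 12 fell and 0 rose in pLKO cells, with medians of -0.44 and -0.37, against 0.00 and 0.01 over all genes tested. The share called was 85.0% in shDRG2 cells and 60.0% in pLKO cells, against 31.4% and 28.1% of all genes tested. Ccnb1, Ccnb2, Birc5, Cdc20, Mki67, Bub1, Bub1b, Kif23, Prc1, Cdca8, Mcm5 and Cdc25a passed in both lines, and Plk1, Cdc25c, Foxm1, Mybl2 and Aurka in shDRG2 cells alone; no difference between the lines passed for any gene of the 4 lists. Mki67, the proliferation marker, stood at 310 and 402 CPM in shDRG2 cells with IFN-γ and 705 and 943 CPM without it, and at 434 and 487 CPM in pLKO cells with IFN-γ and 820 and 696 CPM without it. The treatments did not overlap in either line. Its log2 fold change was -1.21 (edgeR adjusted p = 2.29e-04) in shDRG2 cells and -0.72 (adjusted p = 0.00668) in pLKO cells, and the pLKO call was lost without replicate 1 of the group without IFN-γ (adjusted p = 0.0550). Some of these calls were lost with each library of the line left out. The most were lost without replicate 1 with IFN-γ in shDRG2 cells and without replicate 1 of the group without it in pLKO cells. Leaving out a library leaves 1 in its group. Whether the losses come from that library or from the smaller group was not tested. Top2a, at 439 to 511 CPM over the 8 libraries, did not change.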

How the data were processed

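The authors deposited expected counts (estimated counts of reads per gene), made with STAR and Salmon 1.5.2 on mm10 per the submitters' processing notes. The annotation release is not given in the sources used here. To within 0.0015, 86.4% of nonzero values were whole. Counts were rounded, and 27 entries whose names had become dates (0.204% to 0.212% of a library) were left out. In R 4.3.3, edgeR 4.0.16 kept 13500 genes by filterByExpr, scaled by TMM (factors 0.973 to 1.04) and fitted all 8 libraries with 1 coefficient per group. The quasi-likelihood F test, two-sided, was adjusted by Benjamini-Hochberg over those genes at 0.05. Replicates varied by 8.49% (common biological coefficient of variation). The procedure was tested on simulated counts. SE is that of the log2 fold change, from the fitted model. CPM uses TMM-adjusted library sizes, and CPM per kb divides by the exon length in GENCODE (GRCm38). Alternatives were other scalings, no filter, DESeq2 1.42.0, a robust spread, a replicate block, only the 4 libraries compared, and leaving out each library. Named with values in every library were the members called in any comparison and those with central roles; of the other lists, the called genes and the most abundant one were named, and Top2a was added after its values were seen. The members and lists were chosen with earlier results of these data known. The protocol text names more than one sequencer and read length without saying which library had which.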

Additional observations from a re-analysis of the deposited data

How the results depend on the processing

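Of the 38 changes called among the members, 22 held in all 16 alternatives, 16 missed the threshold in 1 or more, 10 of them only when a library was left out, and 0 reversed. Members called in shDRG2 against pLKO cells numbered 5 with IFN-γ and 4 without it with a replicate block, where the fit without the block gave 2 and 1. Same-numbered libraries deviated together with correlations of 0.107 to 0.274, but the labels do not say what a number marks. Between lines the block added Plk2, Ccng1 and Zmat3 with IFN-γ, and Plk2, Eda2r and Mdm2 without it. For IFN-γ it added Mdm4 in shDRG2 cells (adjusted p = 0.00407) and Trp53 (0.0164), Bax (0.00909) and Phlda3 (0.0297) in pLKO cells. Without IFN-γ, 4 members were called with no filter and 3 with DESeq2, and with IFN-γ 1 was called when only the 4 libraries compared were fitted. With 1 library left out, 0 to 2 were called with IFN-γ and 0 to 1 without it. Counts for IFN-γ ran from 12 to 19 in shDRG2 cells and from 12 to 20 in pLKO cells over all alternatives, and no alternative called a member for the difference between lines. Over all genes, shDRG2 against pLKO gave 226 with IFN-γ, 653 with no filter, 675 with the block, 124 with the 4 libraries alone and 44 to 202 with 1 left out. Without IFN-γ it gave 162, then 678, 673, 133 and 27 to 167, and 312 with DESeq2. Leaving out 1 library gave 2720 to 4297 genes for IFN-γ in shDRG2 cells and 2482 to 3749 in pLKO cells. The difference between lines gave 1 gene, 58 with no filter, 9 with DESeq2 and 2 with the block. The causes of these shifts were not tested. Plk2, Ddb2 and Perp, at under 10 CPM, had the widest intervals for the difference between lines.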
